A study of Mus musculus with 4 samples.

Results

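The 10 genes described here make, break down and sense prostaglandins in the mouse kidney medulla at postnatal day 14. They were taken by name from the 27179 genes of the table: the cyclooxygenases Ptgs1 and Ptgs2, the terminal synthases Ptges, Ptgds and Ptgis, the inactivating enzyme gene Hpgd, and the PGE2 receptors Ptger1 to Ptger4. All 10 passed the filter on low values. The data were 4 mRNA sequencing libraries of kidney medulla from mice of mixed C57BL/6 strain, 1 animal each. The 2 KO-labelled libraries came from Actr3-fl/fl*Cdh16-Cre mice, in which Cre, driven by the promoter of the tubule cadherin gene Cdh16, acts on floxed Actr3. The 2 WT-labelled libraries came from wild-type controls, and whether these carried Cre or floxed alleles is not given in the sources used here. The product of Actr3 is Arp3, part of the Arp2/3 machinery that starts branched actin filaments.

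Prostaglandins are local lipid signals. Phospholipases free arachidonic acid from membranes, the cyclooxygenases turn it into PGH2, and terminal synthases make PGE2, PGD2 or prostacyclin from that. In the medulla PGE2 widens the vasa recta, curbs salt uptake in the thick ascending limb and opposes vasopressin in the collecting duct. It acts through receptors that differ in signal: EP1 raises calcium, EP2 and EP4 raise cyclic AMP, and EP3 mostly lowers it.

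The libraries held 36482238 and 40784436 recovered reads in the KO-labelled group and 40453242 and 40342530 in the WT-labelled group. Actr3 itself was higher in the KO-labelled libraries, with 12587 and 12480 normalized read counts there and 8065 and 7275 in the WT-labelled ones. Its mean was 1.63-fold higher (limma adjusted p = 0.000494), and why it was higher was not tested. A count per gene does not separate deleted from undeleted exons, so this value checks neither the deletion nor the labels. Every direction below rests on the labels. The tissue carried markers of tubule segments that run through the medulla. Aqp2 of principal cells stood at 6961 and 4576 in KO-labelled and 27437 and 34871 in WT-labelled libraries. Slc12a1 of the thick ascending limb stood at 39222 and 28751 against 239881 and 241824. These markers do not show how much cortex the samples held. In whole tissue, fewer cells of a type and less RNA per cell cannot be told apart.

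Of the 10 genes, 6 fell in the KO-labelled libraries, 1 rose and 3 did not pass the threshold (limma, Benjamini-Hochberg adjusted p under 0.05 over 16253 genes). Over all tested genes 24.9% fell and 26.3% rose, 51.2% in all. The genes that fell were Ptger3, Ptgs2, Ptgis, Ptges, Ptger1 and Ptgds, and the one that rose was Ptger4. The groups did not overlap for 8 of the 10, where 78.5% of all tested genes had groups that did not overlap. The median log2 difference of the 10 was -0.60, and that of all tested genes was 0.003. Each difference subtracts the WT-labelled from the KO-labelled mean of log2(value + 1), and folds are ratios of group means of normalized counts.

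**Figure D1:**
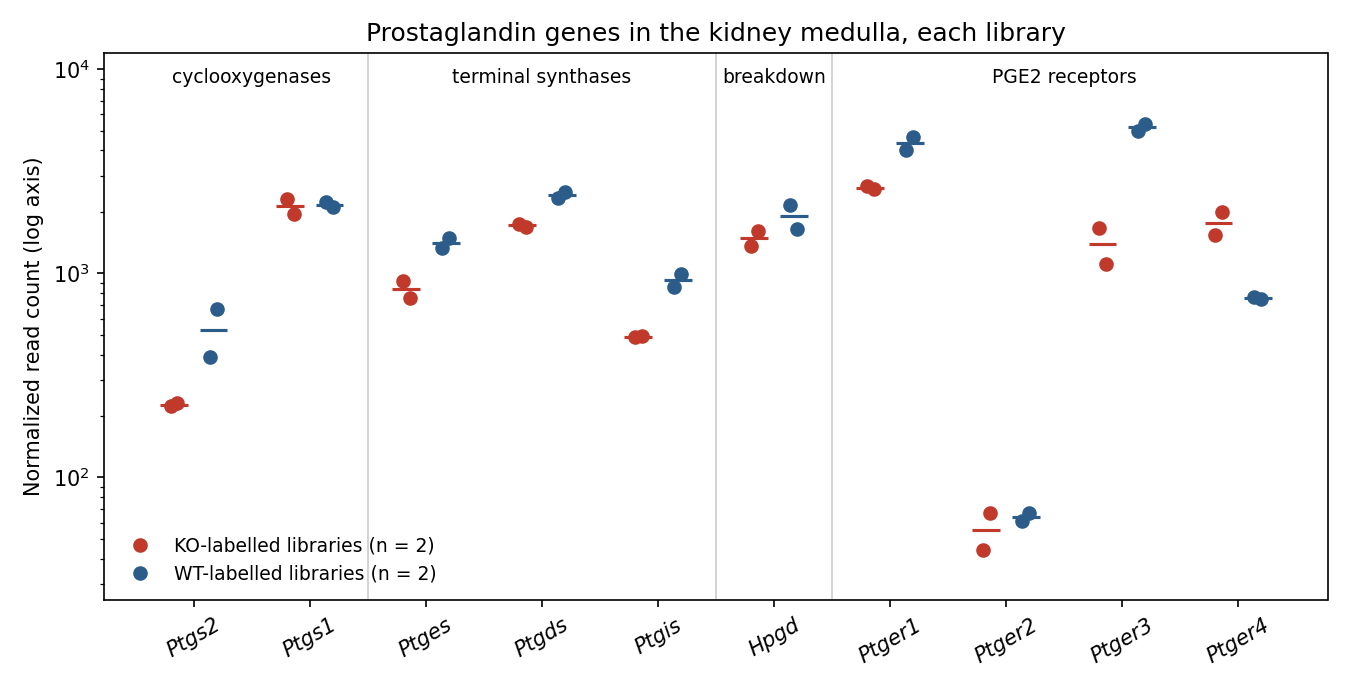
Normalized read count of the 10 genes on a log axis, with 1 point per library, KO-labelled left of WT-labelled, and a bar at the mean of 2. Ptger3 and Ptgs2 lie lower and Ptger4 higher in the KO-labelled libraries, while the points of Ptgs1 and Ptger2 overlap.

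The cyclooxygenases split. Ptgs2 (COX-2, the inducible enzyme; Entrez 19225, chromosome 1, 150100031 to 150108234, GRCm38) had 223 and 232 normalized counts in the KO-labelled libraries and 387 and 670 in the WT-labelled ones. The KO-labelled values were nearly equal and both below the lower WT-labelled value, and the WT-labelled pair differed 1.73-fold from each other. The means were 227 ± 6.13 and 529 ± 200 (SD, n = 2), a 2.32-fold lower level in the KO-labelled group (log2 difference -1.16, SE 0.254, limma adjusted p = 0.00835). Without WT replicate 2 the log2 difference was -0.76 (adjusted p = 0.0296), so its size rests in part on that library.

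Ptgs1 (COX-1, the constitutive enzyme; Entrez 19224, chromosome 2, 36216742 to 36258593) had 2303 and 1954 counts in the KO-labelled libraries and 2225 and 2108 in the WT-labelled ones. The groups overlapped. Its log2 difference of -0.03 had a 95% interval of -0.27 to 0.21 (limma adjusted p = 0.826), and its sign changed between settings. Levels of different genes can be compared only per length, here per kilobase of the exons in GENCODE M21. On that scale Ptgs2 made up 7.59% and 9.14% of the cyclooxygenase sum in both KO-labelled libraries, against 12.9% and 21.2% in the WT-labelled libraries.

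Each of the 3 terminal synthase genes fell. Ptges (microsomal prostaglandin E synthase, which takes PGH2 to PGE2; Entrez 64292, chromosome 2, 30889471 to 30931020) had 915 and 759 counts in the KO-labelled libraries and 1327 and 1485 in the WT-labelled ones. Both KO-labelled values lay below both WT-labelled values. The mean was 1.68-fold lower (log2 difference -0.75, SE 0.126, limma adjusted p = 0.00263).

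Ptgis (prostacyclin synthase, an enzyme of vessel walls; Entrez 19223, chromosome 2, 167203194 to 167252150) had 486 and 494 counts in the KO-labelled libraries and 852 and 996 in the WT-labelled ones. It fell 1.89-fold (log2 difference -0.91, SE 0.125, limma adjusted p = 0.00109), and the groups were well apart. Ptgds (lipocalin-type prostaglandin D synthase, also a carrier of small lipophilic molecules; Entrez 19215, chromosome 2, 25466709 to 25470110) had 1753 and 1695 counts in the KO-labelled libraries and 2326 and 2514 in the WT-labelled ones. Its fall of 1.40-fold was the smallest of the 6 (log2 difference -0.49, SE 0.0862, limma adjusted p = 0.00327).

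Hpgd encodes hydroxyprostaglandin dehydrogenase, which starts the breakdown of PGE2 (Entrez 15446, chromosome 8, 56294552 to 56321046). It had 1354 and 1614 counts in the KO-labelled libraries and 2170 and 1651 in the WT-labelled ones. The groups did not overlap, but KO replicate 2 and WT replicate 2 lay close together. The log2 difference of -0.36 had a 95% interval of -0.71 to 0.00 and did not pass the threshold (limma adjusted p = 0.0866). It did pass without WT replicate 2, at -0.55 (adjusted p = 0.0261). The ratio of Ptges to Hpgd, synthesis over breakdown, was 0.676 and 0.471 in KO-labelled and 0.611 and 0.899 in WT-labelled libraries, so the groups overlapped.

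**Figure D2:**
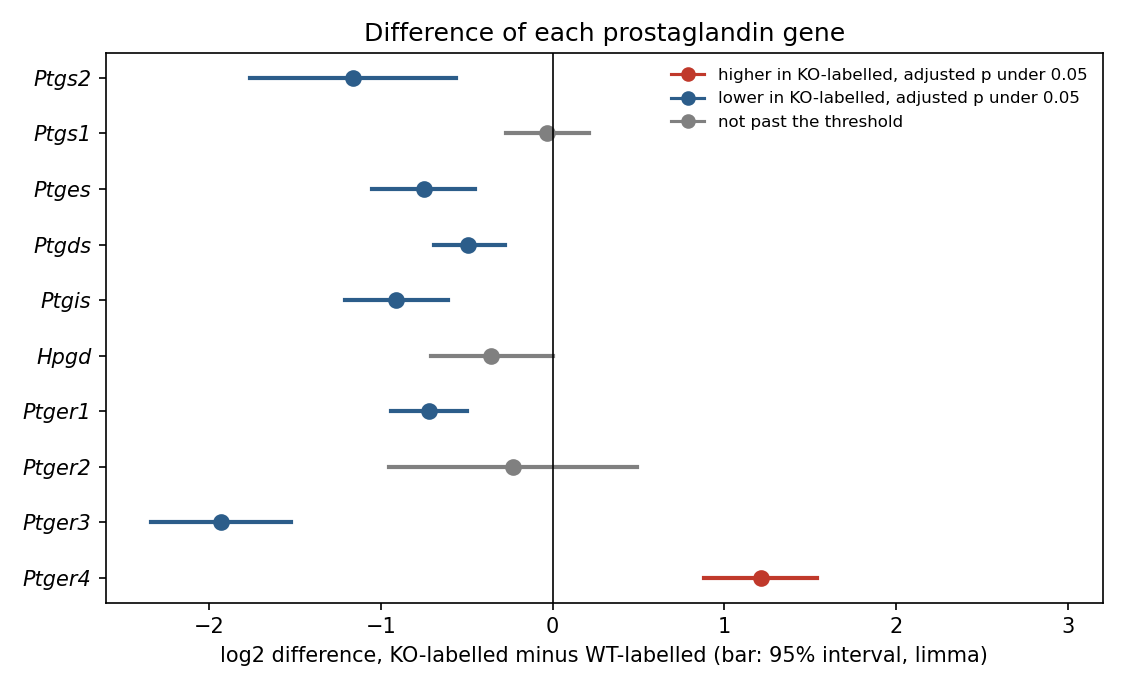
Log2 difference, KO-labelled minus WT-labelled, of each gene with its 95% interval from limma (2 libraries per group). The intervals of Ptgs1 and Ptger2 span 0, that of Hpgd ends at 0, that of Ptger4 lies above 0, and the other 6 lie below it.

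Of the 4 PGE2 receptor genes 2 fell, 1 rose and Ptger2 did not pass the threshold. Ptger3 (EP3, the cyclic AMP-lowering receptor of the thick ascending limb and collecting duct; Entrez 19218, chromosome 3, 157566821 to 157644758) had 1661 and 1114 counts in the KO-labelled libraries and 4992 and 5391 in the WT-labelled ones. The highest KO-labelled value was far below the lowest WT-labelled value. The means were 1388 ± 387 and 5192 ± 283 (SD, n = 2), a 3.74-fold lower level in the KO-labelled group (log2 difference -1.93, SE 0.175, 95% interval -2.34 to -1.52, limma adjusted p = 0.000175).

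Ptger4 (EP4, a cyclic AMP-raising receptor; Entrez 19219, chromosome 15, 5233399 to 5244187) had 1534 and 1997 counts in the KO-labelled libraries and 763 and 749 in the WT-labelled ones. Both KO-labelled values were above both WT-labelled values. The mean was 2.33-fold higher (log2 difference 1.21, SE 0.138, 95% interval 0.88 to 1.54, limma adjusted p = 0.000469). The ratio of Ptger3 to Ptger4 counts within a library, which needs no scaling between libraries, was 1.08 and 0.558 in the KO-labelled libraries and 6.54 and 7.19 in the WT-labelled ones. The groups of this ratio were widely apart; an exact test of 2 against 2 libraries cannot go below p = 0.333 and was not run.

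Ptger1 (EP1; Entrez 19216, chromosome 8, 83666644 to 83672756) had 2670 and 2579 counts in the KO-labelled libraries and 4016 and 4644 in the WT-labelled ones. The groups were apart, with a 1.65-fold lower mean in the KO-labelled group (log2 difference -0.72, SE 0.0937, limma adjusted p = 0.000848). Its count is uncertain, since no strand setting is stated and reads from exons that overlap on opposite strands cannot then be told apart. Ptger2 (EP2, a cyclic AMP-raising receptor; Entrez 19217, chromosome 14, 44988111 to 45003820) was the lowest of the 10, at 44.0 and 66.9 counts in KO-labelled and 61.1 and 66.6 in WT-labelled libraries. The groups overlapped, and 41 to 71 reads per library left a wide interval for the log2 difference of -0.23, which ran from -0.95 to 0.49 (limma adjusted p = 0.557).

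Per kilobase of exon, Ptger3 made up 28.6% and 19.9% of the receptor sum in both KO-labelled libraries, against 50.4% and 49.3% in the WT-labelled ones. Ptger4 made up 22.6% and 30.6% in both KO-labelled libraries, against 6.60% and 5.86% in the WT-labelled ones. Since the count of Ptger1 is uncertain, the shares were also taken without it: Ptger4 then held 43.4% and 59.0% in KO-labelled and 11.4% and 10.5% in WT-labelled libraries. In either form EP4 took a larger part, and EP3 a smaller part, of the receptor transcripts in both KO-labelled libraries.

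**Figure D3:**
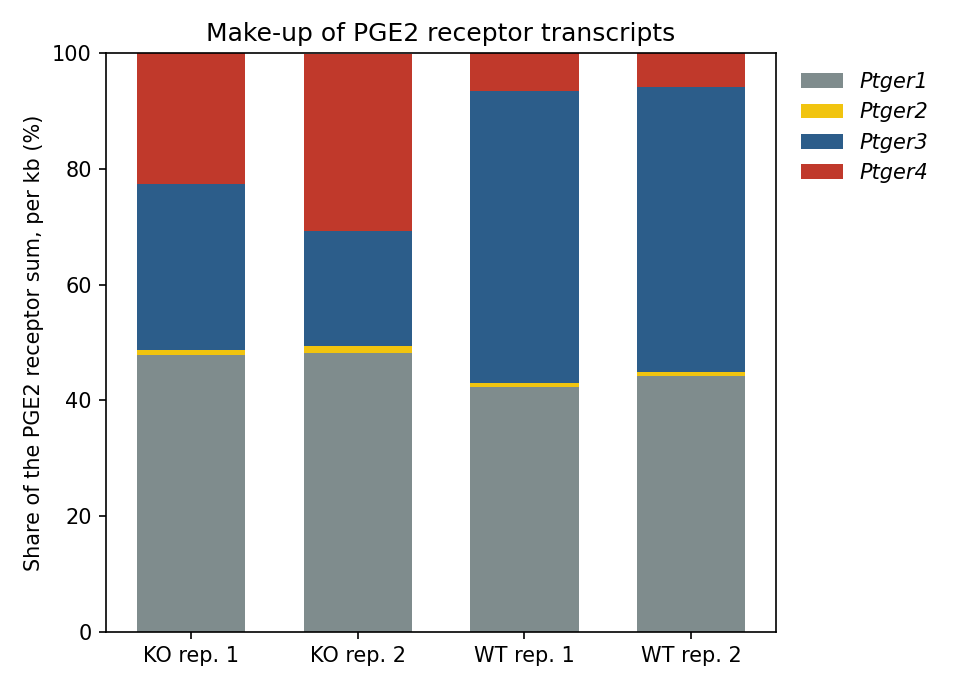
Share of each PGE2 receptor gene in the sum of the 4, per kilobase of exon, in each library (percent), with the KO-labelled libraries on the left. Ptger3 takes 28.6% and 19.9% in KO-labelled and 50.4% and 49.3% in WT-labelled libraries, and Ptger4 takes 22.6% and 30.6% against 6.60% and 5.86%.

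The order of all 10 levels per kilobase differed between the groups mainly by these receptors. In the KO-labelled libraries it ran Ptgds, Hpgd, Ptgs1, Ptger1, Ptger4, Ptger3, Ptges, Ptgis, Ptgs2 and Ptger2. There Ptger4, Ptger3 and Ptges could not be ordered, since the ranges of neighbours overlapped. In the WT-labelled libraries it ran Ptgds, Hpgd, Ptger3, Ptger1, Ptgs1, Ptgis, Ptges, Ptgs2, Ptger4 and Ptger2. There the ranges of Ptgis and Ptges overlapped, as did those of Ptgs2 and Ptger4. Ptger3 thus ranked 6 in the KO-labelled group and 3 in the WT-labelled group, and Ptger4 ranked 5 and 9. Ptgds averaged 1045 counts per kilobase in the KO-labelled group and 1468 in the WT-labelled group, and Ptger2 averaged 10.7 and 12.3. With the longest transcript as the length, Ptger3 ranked 6 and 2 and Ptger4 5 and 8, so both shifts held.

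Among the terminal synthase genes Ptgis fell most, but it had no promoter in the RefSeq promoter table. The promoters of 4 genes that changed are shown: the receptor gene that rose, the receptor and cyclooxygenase genes that fell most, and Ptges. Each is the 250 bases before the 1 start per gene in the RefSeq promoter table on GRCm38.p6, read 5′ to 3′ on the gene's strand, and capitals mark motif matches. The table does not name the transcript, and for Ptger3 and Ptges its start lies inside the RefSeq gene span given above, so these windows are not upstream of the outermost start; that of Ptges ends just before the start of a shorter GENCODE M21 transcript. The positions are chr3:157566626-157566875 (plus strand) for Ptger3, chr15:5244188-5244437 (minus) for Ptger4, chr1:150099781-150100030 (plus) for Ptgs2 and chr2:30903298-30903547 (minus) for Ptges.
Ptger3: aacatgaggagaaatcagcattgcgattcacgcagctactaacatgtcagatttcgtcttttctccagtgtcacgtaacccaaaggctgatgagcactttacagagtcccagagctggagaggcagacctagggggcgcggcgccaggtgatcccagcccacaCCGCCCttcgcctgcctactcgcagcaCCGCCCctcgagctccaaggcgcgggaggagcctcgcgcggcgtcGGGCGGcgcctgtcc
Ptger4: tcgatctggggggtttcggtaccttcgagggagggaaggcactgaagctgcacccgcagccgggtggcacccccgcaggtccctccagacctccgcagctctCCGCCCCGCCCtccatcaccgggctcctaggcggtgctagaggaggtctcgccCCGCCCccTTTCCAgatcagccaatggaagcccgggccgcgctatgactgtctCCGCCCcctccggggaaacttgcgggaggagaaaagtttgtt
Ptgs2: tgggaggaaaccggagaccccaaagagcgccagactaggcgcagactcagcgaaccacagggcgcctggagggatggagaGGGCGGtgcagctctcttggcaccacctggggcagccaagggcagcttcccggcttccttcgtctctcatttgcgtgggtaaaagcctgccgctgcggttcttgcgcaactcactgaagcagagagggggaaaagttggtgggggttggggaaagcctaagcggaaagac
Ptges: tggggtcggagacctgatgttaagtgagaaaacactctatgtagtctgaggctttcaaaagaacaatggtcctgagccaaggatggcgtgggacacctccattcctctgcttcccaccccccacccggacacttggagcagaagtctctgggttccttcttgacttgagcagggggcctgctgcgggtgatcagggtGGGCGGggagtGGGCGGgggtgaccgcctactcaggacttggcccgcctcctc

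The motifs searched on both strands were the cyclic AMP element TGACGTCA, the AP-1 site TGANTCA, the E-box CACGTG, the TATA box TATAAA, the GC box GGGCGG, the tonicity element core TGGAAA and the NF-kappaB site. Every capital in the Ptger3, Ptgs2 and Ptges windows is a GC box. Ptger4 holds 4 GC boxes, of which 2 share a base, and 1 tonicity element core. GC boxes were in 5 of the 8 members with a promoter in the RefSeq table, and in 32.7% of all 32851 promoter windows of this length. The tonicity core was in 2 of 8 and in 18.6% of all windows. The AP-1 and NF-kappaB sites were each in 1 of 8, both in Ptgds, and in 6.75% and 3.9% of all windows. The cyclic AMP element, the E-box and the TATA box were in none of the 8, and in 1.55%, 6.02% and 12.4% of all. Sites outside these 250 bases would be missed. Ptger3, which fell, and Ptger4, which rose, thus share the GC box and no other searched motif in these windows.

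Markers of other cell types moved in the same libraries. All 5 principal cell markers fell, with a summed count of 10128 to 13209 in KO-labelled and 43090 to 52751 in WT-labelled libraries. Of 5 thick ascending limb markers 3 fell and 1 rose, with sums of 176189 to 253953 against 427191 to 433694. Most of the KO-labelled sums was Umod, the uromodulin gene, and most of the WT-labelled sums was Slc12a1. Umod had 203680 and 138033 counts in KO-labelled and 136828 and 143709 in WT-labelled libraries. It did not pass the threshold (limma adjusted p = 0.294), though it was called higher after quantile normalization. The rise, of the claudin gene Cldn16 (limma adjusted p = 0.0476), was lost whichever library was left out and in edgeR and DESeq2. Of 3 thin limb markers 2 fell, with sums of 32053 to 43040 against 103748 to 129389. These were Aqp1 and Slc14a2, which fell 3.88-fold and 2.9-fold and made up most of each sum. The sums therefore do not describe the 3 markers alike. All 5 endothelial markers fell, with sums of 18578 to 19652 against 62618 to 63438. All 5 macrophage markers rose, with sums of 21356 to 22269 against 5843 to 6377. Of 5 fibroblast markers 2 rose and 3 did not pass the threshold, with sums of 118948 to 126383 against 50563 to 56088. Most of the KO-labelled sums was the collagen gene Col1a1. It had 80404 and 82975 counts in KO-labelled and 12071 and 15309 in WT-labelled libraries, so the sums do not describe the 5 markers alike. Of 4 smooth muscle and pericyte markers 3 rose and 1 fell, with sums of 34664 to 42686 against 9420 to 13740. All 3 urothelial markers fell, 2 of 3 platelet and 1 of 2 mast cell markers rose, neither of 2 neutrophil markers passed the threshold with all libraries, and the 1 tested red cell marker fell. Without KO replicate 1 both neutrophil markers were called higher (S100a8 and S100a9, log2 differences of 2.06 and 2.14, limma adjusted p = 0.0149 and 0.0477), and without WT replicate 1 S100a9 was. The mast cell marker that rose, Cpa3, had 19 and 27 reads in KO-labelled and 0 and 3 in WT-labelled libraries. The other, Kit, had 3592 and 2709 counts in KO-labelled and 2212 and 2748 in WT-labelled libraries, and the groups overlapped. Without KO replicate 2 its log2 difference was 0.54. The levels of the 2 were far apart, so they do not describe 1 cell type alike. No marker of the lists with sums was at 0, and the part of these markers in the prostaglandin gene differences was not tested.

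Ratios of members to single markers are given as values with no test, and they turned with the marker taken. Ptger3 per count was higher in both KO-labelled libraries than in either WT-labelled one for 3 of the 5 thick ascending limb markers and lower for the other 2. Per Slc12a1 count it was 0.0424 and 0.0387 in the KO-labelled libraries and 0.0208 and 0.0223 in the WT-labelled ones, but per count of Umod, the uromodulin gene, it was 0.00816 and 0.00807 in KO-labelled and 0.0365 and 0.0375 in WT-labelled libraries. Over the 5 principal cell markers Ptger3 was higher per count for 2 and lower for 3. Ptges per principal cell marker was higher for 4, among them Aqp2 with 0.131 and 0.166 in both KO-labelled libraries, against 0.0484 and 0.0426 in the WT-labelled ones, and lower for 1, the sodium channel gene Scnn1g. Ptgis per endothelial marker was higher for 4 of 5, and the groups overlapped for Cdh5, the endothelial cadherin gene. Ptger4 per macrophage marker was lower for 4 of 5, with 0.254 and 0.356 per C1qa count in KO-labelled and 0.832 and 0.821 in WT-labelled libraries. Per count of the macrophage receptor gene Csf1r the groups overlapped, at 0.173 and 0.202 in KO-labelled and 0.194 and 0.210 in WT-labelled libraries.

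The step before the cyclooxygenases was examined with 25 genes of arachidonate release, of which 17 were tested, 7 rose and 6 fell, with a median log2 difference of -0.05. Pla2g4a, the cytosolic phospholipase that supplies the cyclooxygenases, had 4032 and 4036 counts in the KO-labelled libraries and 7954 and 8092 in the WT-labelled ones, a 1.99-fold lower mean. Mgll, the monoacylglycerol lipase, fell 3.95-fold (log2 difference -1.97, limma adjusted p = 4.03e-05). The lipases Pla2g7, which degrades platelet-activating factor, and Pla2g15, a lysosomal enzyme, rose 2.65-fold and 2.08-fold. Pla2g4a was thus lower in the same libraries as Ptgs2 and Ptges.

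Other prostanoid synthases went both ways: of 11 tested, 6 rose and 3 fell (median log2 difference 0.34). Hpgds, the haematopoietic prostaglandin D synthase, had 559 and 544 counts in the KO-labelled libraries and 164 and 101 in the WT-labelled ones, a 4.16-fold higher mean. It rose where the other D synthase gene, Ptgds, fell. Tbxas1, thromboxane synthase, rose 2.35-fold, and macrophage markers rose in the same libraries, as given above. The aldo-keto reductase genes Akr1b8 and Akr1b3 had log2 differences of 2.86 and -1.71, and Akr1b7 had one of -1.83. The mouse product of Akr1b3 is aldose reductase, the sorbitol-making enzyme of medullary cells, which can also make PGF2alpha. Prxl2b, a prostamide and PGF synthase gene, rose by a log2 difference of 1.07, and the carbonyl reductase genes Cbr3 and Cbr1 had differences of 1.64 and -0.68. Ptges3, the p23 cochaperone also described as a cytosolic E synthase, rose by a log2 difference of 0.34 (limma adjusted p = 0.0218), a call lost without KO replicate 1 (0.140) or either WT replicate (0.0784 and 0.0545). Ptges2 did not pass the threshold with all libraries (log2 difference -0.33, limma adjusted p = 0.0868). Nor did Akr1b10 (log2 difference -0.13, limma adjusted p = 0.297), and Akr1c18 was too low to be tested.

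Of 3 tested receptors for other prostanoids 2 fell and 1 rose, with a median log2 difference of -1.66. Tbxa2r, the thromboxane receptor, had 79.4 and 145 counts in the KO-labelled libraries and 617 and 677 in the WT-labelled ones, a 5.76-fold lower mean (limma adjusted p = 0.000376). Ptgfr, the receptor for PGF2alpha, had 284 and 341 counts in KO-labelled and 914 and 1063 in WT-labelled libraries, a 3.16-fold lower mean (limma adjusted p = 0.000167). Ptgir, the prostacyclin receptor, had 212 and 160 counts in KO-labelled and 41.4 and 47.7 in WT-labelled libraries, a 4.18-fold higher mean (limma adjusted p = 0.000703). Each of these 3 had groups that did not overlap. The prostacyclin receptor was thus higher in the libraries in which the prostacyclin synthase gene was lower. The PGD2 receptors Ptgdr and Ptgdr2 had at most 4 reads per library and were not tested.

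Among 11 tested genes of prostaglandin transport and inactivation, 4 rose and 5 fell (median log2 difference -0.38). Slco2a1, the uptake carrier that delivers prostaglandins to breakdown, had 3183 and 2658 counts in the KO-labelled libraries and 1060 and 956 in the WT-labelled ones, a 2.90-fold higher mean (limma adjusted p = 8.22e-05). Ptgr2, a reductase that acts after Hpgd, fell 1.98-fold, and Slco4a1, another organic anion carrier, fell 2.84-fold. The carrier gene Slc22a8 fell most, with 179 and 401 counts in KO-labelled and 864 and 1763 in WT-labelled libraries. Its mean was 4.53-fold lower (limma adjusted p = 0.0052), but both pairs were widely spread. The call was lost with a robust variance trend (limma adjusted p = 0.0629). Slc22a7 and Slc22a22 did not pass the threshold. The small rises of Abcc4, Ptgr1 and Hsd17b12 (log2 differences of 0.36, 0.56 and 0.28) were each lost when some 1 library was left out, and so were the falls of Slc22a6 and Slco3a1 (-1.27 and -0.38). The rises numbered 2 without WT replicate 1 or either KO replicate, and the falls 3 without WT replicate 2.

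**Figure D4:**
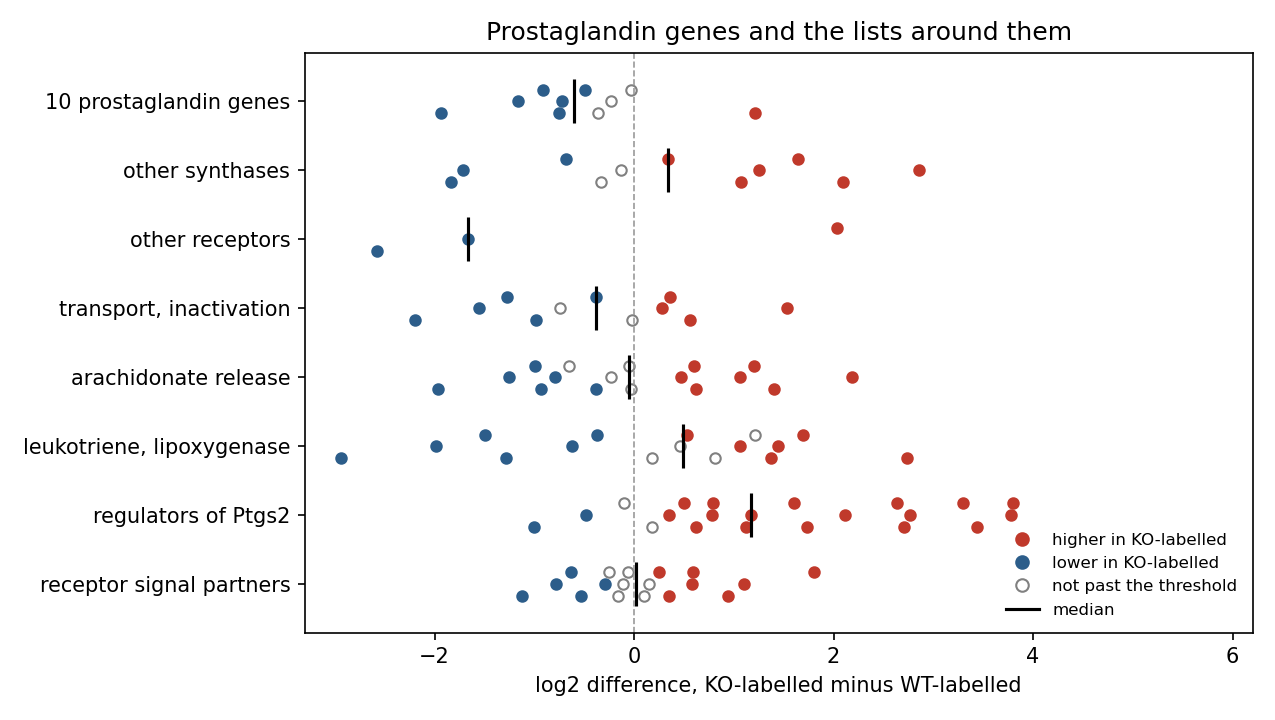
Log2 difference, KO-labelled minus WT-labelled, of each tested gene of the 10 prostaglandin genes and of 7 lists around them. Filled points passed the limma threshold and vertical bars are medians: -0.60 for the 10 genes, 1.17 for the regulators of Ptgs2 and 0.02 for the receptor signal partners.

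Most of the listed regulators of Ptgs2 were higher where Ptgs2 was lower. Of 21 such cytokines, receptors and transcription or mRNA stability factors, 17 rose and 2 fell in the KO-labelled libraries, with a median log2 difference of 1.17. Over all tested genes 26.3% rose and 24.9% fell. Egr1, an immediate early transcription factor gene, had 8363 and 7441 counts in the KO-labelled libraries and 930 and 692 in the WT-labelled ones, and rose 9.75-fold. Jun, Il1r1 (the interleukin-1 receptor) and Il1rn (its antagonist) rose 3.32-fold, 3.03-fold and 14.2-fold. The 2 that fell, named after their values were seen, were Nfat5, the tonicity-responsive factor, and Hif1a, the hypoxia-responsive factor. Their KO-labelled means were 71.6% and 49.9% of the WT-labelled means (limma adjusted p = 0.0049 and 0.000237). The list also holds opposing factors, among them the antagonist Il1rn and the NF-kappaB inhibitor gene Nfkbia. Nfkbia, named after its values were seen, rose 1.4-fold. The count of the list thus gives no single direction for Ptgs2. The part of any listed gene in the Ptgs2 difference was not tested.

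Partners of receptor signalling showed no common direction, with 7 rises and 5 falls among 18 tested and a median of 0.02. The falls numbered 3 without KO replicate 1 or WT replicate 2, with 5 and 6 rises. Gnas, the stimulatory G protein gene on which EP2 and EP4 act, had 44690 and 45324 counts in KO-labelled and 48031 and 52322 in WT-labelled libraries and did not pass the threshold (log2 difference -0.16, limma adjusted p = 0.208). The adenylyl cyclases differed among themselves. Adcy6, a major cyclase of tubule epithelium, fell 2.17-fold, while Adcy7 and Adcy3 rose 3.48-fold and 2.15-fold. Arrb2, an arrestin that turns off such receptors, rose 1.92-fold, with means of 1287 in KO-labelled and 669 in WT-labelled libraries. Arrb1, the other listed arrestin gene, named after its values were seen, fell 1.44-fold (limma adjusted p = 0.00232). Its means were larger, at 7513 and 10833.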

How the data were processed

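The 4 libraries are mRNA sequencing of kidney medulla, 2 animals per group, grouped by their titles. The deposited signal values are gene read counts that the authors divided by 1 size factor per library, read from the values: 100% of them were whole within 0.001 after division by 1 step per column. The submitters' processing notes name mm10 and GRCm38 with HISAT2 2.2.1, fastp 0.20.1, DESeq2 2.11.40.7 and featureCounts 2.0.1; sources used here do not state the annotation or strand setting. Of 27179 Entrez IDs, 25275 matched a RefSeq symbol of GRCm38.p6. Per-length levels and overlaps use GENCODE M21.

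Log2(value + 1) was tested two-sided by limma (version 3.58.1, R 4.3.3; variance trend on) for 16253 genes whose mean reached 10, Benjamini-Hochberg adjusted, threshold 0.05. The pseudocount understates changes of low genes. edgeR 4.0.16 and DESeq2 1.42.0 on recovered reads were alternatives, beside other pseudocounts, filters, scalings, variance models, a replicate block and leaving out each library. The fits were tested on simulated data. Replicates differed beyond sampling noise (chi-square per degree of freedom 16.9 in KO-labelled and 22.3 in WT-labelled pairs). Counting limits cover counting error only. The genes, lists and motifs were chosen with earlier results of these data known. Named are the 10 genes, up to 4 genes per list by adjusted p (2 for markers), the other prostaglandin genes, and the 3 nearest patterns to the most changed member; Gnas, the marker genes used as divisors, and genes said so were added after values were seen. Summed lists mix genes of unequal length.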

Additional observations from a re-analysis of the deposited data

How the results depend on the processing

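Of the 10 genes, 7 kept their direction and their call in all 16 alternatives. Ptger3 ranged from -2.22 to -1.64 and Ptger4 from 1.02 to 1.40 in log2 difference. Ptgs1 crossed 0, at 0.01 after total read scaling and from -0.15 to 0.09 with 1 library left out. Ptger2 ranged from -0.53 to 0.07 with 1 library left out. Hpgd ranged from -0.55 to -0.16 there, and was called without WT replicate 2 (limma adjusted p = 0.0261). Elsewhere it was not called. The cause was not tested. The all-gene counts stayed within 1.5 times of 4277 higher and 4051 lower: edgeR called 4190 and 4113, DESeq2 4006 and 3817, and the fit with no variance trend 3424 and 3306. Same-numbered libraries did not deviate together (r = -0.06 across 16253 genes, which are not replicates), so the numbers are not shown to pair samples; with a replicate block 3810 genes were higher and 3619 lower, and the 10 genes kept 1 rise and 6 falls. Where 1 library remained in a group, its spread was taken from the other group. Ptger2, with 41 to 71 reads per library, limits what depth can show.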

Other observations

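The leukotriene and lipoxygenase branch, which uses the same arachidonic acid, went both ways: of 16 tested genes 6 rose and 6 fell, with a median log2 difference of 0.49. Alox5ap, the activating protein of the leukotriene pathway in white blood cells, had 474 and 487 counts in the KO-labelled libraries and 70.9 and 71.6 in the WT-labelled ones, and rose 6.75-fold. Cysltr1, a receptor for cysteinyl leukotrienes, rose 2.70-fold. Alox12, a lipoxygenase gene, had 153 and 179 counts in the KO-labelled and 704 and 621 in the WT-labelled libraries, and fell 3.99-fold. Dpep1, a dipeptidase of the proximal tubule brush border that trims leukotriene D4, fell 2.83-fold. Macrophage markers rose in the same libraries (5 of 5), and their part in these values was not tested.

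By Euclidean distance over the 4 libraries, of log2(value + 1) centred on each gene's mean, the genes with a pattern most like that of Ptger3 were Zc2hc1c, Spaar and Rnf186, at distances of 0.127, 0.139 and 0.146 among 14042 genes. Zc2hc1c had 359 and 266 counts in the KO-labelled libraries and 1086 and 1155 in the WT-labelled ones.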
